A study of Mus musculus with 2 samples.

Results

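The proteasome is built from families of proteins whose mouse genes share the symbols Psma, Psmb, Psmc, Psmd and Psme, and these genes were followed here through the cell types of the liver and through red cell maturation. Every gene of the table with such a symbol was taken, apart from the inducible catalytic subunits Psmb8, Psmb9 and Psmb10, which served for comparison. This gave 42 of 26078 genes. They comprise 7 alpha-ring and 7 beta-ring genes, the tissue-restricted core genes Psma8 and Psmb11, 9 genes of the cap's base, 8 of its lid, 3 base chaperones, 5 activators and Psmc3ip, which shares the name but encodes a recombination cofactor and no subunit. In the text, core means the 16 Psma and Psmb genes, and cap means the 20 Psmc and Psmd genes other than Psmc3ip, chaperones included.

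Single-cell RNA was measured in 2 male mice aged 8 to 10 weeks without treatment, 1 of genotype Spta wt/wt and 1 littermate of genotype Spta sph/sph, a mutation that gives fragile red cells and hemolytic anemia. Non-parenchymal liver cells were enriched with magnetic beads against F4/80, a macrophage surface protein. The study asked how the engulfing of red cells changes liver macrophages. Cell barcodes end in 1 or 2, and no label ties either number to a mouse, so values are given for library 1 and library 2 and no difference is assigned to a genotype. Transcripts were counted as UMIs (unique molecular identifiers, 1 per captured transcript) at their 3' end. There was 1 mouse per genotype, so no test was possible, and all intervals are 95% and cover counting error only.

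The proteasome takes apart proteins that carry ubiquitin chains. Its core is a stack of alpha and beta rings with the catalytic sites of Psmb5, Psmb6 and Psmb7 inside, and the cap recognises the chain, removes it and unfolds the protein. Psme1 and Psme2 form an alternative, interferon-responsive lid of the core that is linked to antigen presentation, Psme3 forms a related nuclear one, and Psme4 is a large single-chain activator. Maturing red cells clear most of their proteins and organelles before they become reticulocytes, which still hold ribosomes and proteasomes, and then lose these as well.

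Library 1 held 8907 barcodes with 33099802 UMIs and library 2 held 9726 with 56947765. After filters on gene number and mitochondrial share, 3488 barcodes (39.2%) and 6942 barcodes (71.4%) were kept. Of the barcode sequences, 955 occurred in both libraries, and 815 kept barcodes of library 1 and 44 of library 2 had a partner in the other library with more than 5 times their UMIs. Marker genes placed 2934 and 5884 cells in lineages. All 98 early, 41 intermediate and 19 late erythroid cells of library 1 were such shallow shared barcodes, so red cell stages are described in library 2 only, and for Kupffer-gated cells of library 1 the core and cap results are given with and without them. Of the single-member log2 ratios between the libraries, given with these barcodes, that of Psmb6 moved most when they were left out (0.69 with, 0.79 without). Kupffer-gated cells (the resident liver macrophages) numbered 2238 in library 1, of which 554 were shallow shared, and 4750 in library 2, of which 25 were. All 14 Kupffer markers and, in early, intermediate and late erythroid cells of library 2, all 19 erythroid markers of the table were found in at least 10% of the gated cells. Fewer were in reticulocyte-like (17 of 19), conventional dendritic (10 of 12 in each library) and, in library 1, T and natural killer (7 of 10) and stellate cells (9 of 10). Libraries 1 and 2 held 31 and 62 conventional dendritic, 25 and 43 T and natural killer and 27 and 27 stellate cells. Hepatocytes of library 2 numbered 25. The Kupffer markers were also present outside their gate, at a median of 18.3 UMIs per 10000 in endothelial cells of library 1 and 91.2 in B cells of library 2, against 347 and 417 in the Kupffer gate. No doublet caller was used, and their part in the results below was not tested.

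Across the cell types, levels are given as CPM (UMIs scaled to a common total) over genes other than globin, because globin RNA fills the total of red cells. Early erythroid cells had the highest core and cap levels of the 12 gates ranked in library 2. Their core genes summed to 3350.2 CPM (3294 to 3408) in 190 cells, against 2354 (2336 to 2372) in Kupffer-gated cells of the same library. Their cap genes summed to 3345 CPM (3288 to 3402), against 1717 (1701 to 1732). Over all genes, the core was 0.58 higher on the log2 scale (0.55 to 0.61) in early erythroid than in Kupffer-gated cells, and over genes other than globin 0.51 (0.48 to 0.54). Next in the core of library 2 came intermediate erythroid cells and monocytes (2679 and 2677 CPM), whose intervals overlapped, and then Kupffer-gated and conventional dendritic cells (2354 and 2270.4), whose intervals overlapped too. T and natural killer cells (1974), B cells (1934), hepatocytes (1933), late erythroid (1888), endothelial (1707), stellate (1648) and reticulocyte-like cells (1308) followed, each overlapping its neighbour in this order. In library 1 the core ran from 2195 CPM in monocytes to 1335 in B cells. The order of the cap was different, with endothelial cells (1587 and 1448 CPM) above monocytes (1289 and 1343) and conventional dendritic cells (1176 and 1049.7) in both libraries, though the intervals of endothelial cells and monocytes overlapped in library 2.

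**Figure D1:**
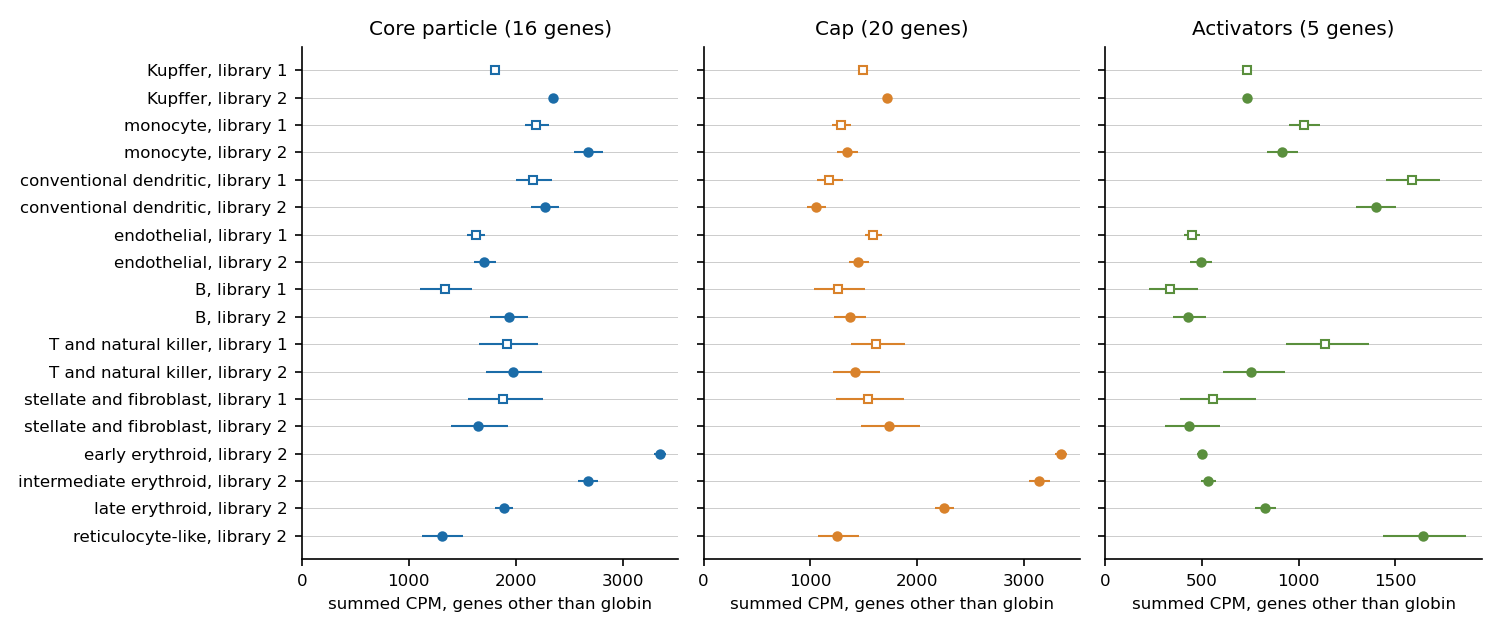
Summed CPM over genes other than globin for core, cap and activator genes in each gate, with 95% counting intervals; open squares are library 1 and filled circles library 2, and erythroid stages are shown for library 2 only. Early erythroid cells stand highest for core (3350.2) and cap (3345), while the activators are highest in reticulocyte-like (1641) and conventional dendritic cells (1587 and 1398).

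The gain of early erythroid cells over Kupffer-gated cells was larger in the cap than in the core and, among the rings, base and lid, largest in the lid. The lid, which carries the deubiquitinase, was 1.12 higher (log2, 1.07 to 1.16), the base 0.76 (0.72 to 0.79), the beta ring 0.61 (0.57 to 0.65) and the alpha ring 0.42 (0.39 to 0.46). Among 41 members with at least 30 UMIs in either gate, 25 were at least 1.5-fold higher, where 36.2% of all genes were, and 3 were at least 1.5-fold lower, where 41.7% of all genes were. The members' median was 0.76 and that of all genes -0.11.

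Of the base chaperones, Psmd9 and Psmd5 had ratios above those of every ring, base and lid gene named here, and Psmd10 had not. Psmd9, which helps assemble the ring of ATPases and then leaves it, was at 154 CPM in early erythroid and 27.6 in Kupffer-gated cells, a log2 ratio of 2.48 (2.33 to 2.64). Psmd5, a chaperone of the same ring, was at 74.2 and 16.5 CPM (2.17, 1.95 to 2.38), and Psmd10, the third, at 37.0 and 24.4 (0.60, 0.33 to 0.86). Of the lid, the scaffold subunit Psmd3 was at 161 and 45.6 CPM (1.82, 1.69 to 1.96), Psmd7 at 260.2 and 87.2 (1.58, 1.47 to 1.68), the deubiquitinase Psmd14 at 142 and 53.0 (1.42, 1.27 to 1.56) and Psmd11 at 209 and 123 (0.77, 0.66 to 0.88). In the base, the ATPase Psmc2 had a ratio of 1.27 (1.09 to 1.45), the large scaffold Psmd1 0.87 (0.77 to 0.97), its partner Psmd2 0.55 (0.45 to 0.64) and the ubiquitin receptor Psmd4 0.34 (0.24 to 0.44). The catalytic subunits differed among themselves: Psmb7, of trypsin-like activity, had a ratio of 1.02 (0.86 to 1.16), Psmb5, of chymotrypsin-like activity, 0.55 (0.45 to 0.66), and Psmb6, of caspase-like activity, 0.50 (0.39 to 0.62). Psma3 was at 249 and 212 CPM (0.23, 0.13 to 0.33), and Psma6 did not differ beyond counting error (-0.00, -0.11 to 0.10). Psmc3ip, the non-subunit, had 139 UMIs in early erythroid and 18 in Kupffer-gated cells, which is 35.0 against 0.650 CPM (5.75, 5.04 to 6.55).

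The activators split. Psme3 was higher in early erythroid than in Kupffer-gated cells, at 165 and 63.4 CPM (1.38, 1.25 to 1.51), whereas Psme1, at 143 and 330.1 CPM (-1.21, -1.34 to -1.09), and Psme2, at 79.0 and 189 CPM (-1.26, -1.43 to -1.10), were lower. Psme2b, a near copy of Psme2 whose reads the counting could have divided, was at 4.78 and 31.8 CPM (-2.73, -3.47 to -2.08). Psme4 was at 106 and 117 CPM with an interval that includes no change (-0.14, -0.29 to 0.01). The inducible catalytic subunits, which replace the constitutive ones in immune cells, were lower as well, Psmb8 by a log2 ratio of -3.27 (-3.67 to -2.90), Psmb9 by -2.46 (-2.90 to -2.04) and Psmb10 by -1.17 (-1.34 to -0.99).

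Among the partners of the proteasome, 4 of 6 genes for core assembly and inhibition were at least 1.5-fold higher in early erythroid than in Kupffer-gated cells and none was lower, where 36.2% of all genes were higher and 41.7% lower; the list's median was 2.21. The inhibitor Psmf1 (2.74) and the assembly chaperones Psmg2 (2.51), Psmg1 (2.21) and Psmg3 (2.21) were higher, while Psmg4 (0.09) and the maturation factor Pomp (-0.36) were not past 1.5-fold. Of 8 cap partners outside the naming rule, 5 were higher and 1 was lower, led by the deubiquitinases Uchl5 (1.91) and Usp14 (1.41), with Zfand5 (-0.98) lowest. Of 12 shuttle factors and unfoldase genes, 4 were higher, a share near that of all genes, and 1 was lower.

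Erythroid cells of library 2 were split by their globin share of UMIs into early (under 10%, 190 cells), intermediate (10 to 30%, 127), late (30 to 70%, 273) and reticulocyte-like cells (70% and above, 60). These are ranges of a continuous measure, and 38, 29 and 30 of the 650 erythroid cells lay within 2 percentage points of the 3 limits. Median depth was 22285, 11329, 7718 and 9276 UMIs. Kupffer markers stood at 13.7, 27.3, 70.2 and 104 per 10000 along the stages, so they move with stage, and their part in the stage results was not tested beyond the values given without the cells that have 50 or more per 10000.

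The core and the cap became a smaller share of RNA along the stages, and this held with globin left out of the total. The core summed to 3350.2 CPM in early, 2679 (2588 to 2771) in intermediate, 1888 (1807 to 1971) in late and 1308 (1127 to 1511) in reticulocyte-like cells, over genes other than globin. The cap summed to 3345, 3139 (3041 to 3239), 2251 (2162 to 2342) and 1252 (1074 to 1450.3). The core was thus lower at each step, and the cap moved little before the late stage. From early to late, the core differed by -0.83 on the log2 scale (-0.90 to -0.76) and the cap by -0.57 (-0.63 to -0.51). Over all genes, globin included, the differences were -1.82 (-1.89 to -1.75) and -1.56 (-1.63 to -1.50). Without cells of 50 or more Kupffer markers per 10000, the values over all genes were -1.38 for the core and -1.21 for the cap.

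In late cells the members' share was close to that of all genes. Of 39 members with at least 30 UMIs, 20 were at least 1.5-fold lower in late than in early cells over genes other than globin, where 47.7% of all genes were, and 1 was at least 1.5-fold higher, where 22.2% were. The members' median was -0.59 and the median of all genes -0.51. Over all genes, 38 members were lower, where 74.5% of all genes were. In intermediate cells 4 members were lower over genes other than globin, where 32.6% of all genes were: the alpha-ring genes Psma7 (-0.70, -0.87 to -0.54) and Psma6 (-0.60) and the lid genes Psmd7 (-0.68) and Psmd3 (-0.60). The highest ratios of that step were those of Psme4 (0.53), Psmc3ip (0.52), Psme3 (0.39) and Psmd13 (0.29). In reticulocyte-like cells 30 of 39 were lower than in early cells over genes other than globin, where 49.3% of all genes were, and 3 were higher, where 17.2% were. The members' median there was -1.50 against -0.57 for all genes, and the lowest were Psmd9 (-4.45, -9.75 to -1.96), Psmd7 (-3.62), Psmd3 (-2.93) and Psmc2 (-2.64), from 1, 3, 3 and 2 UMIs. The core differed from early cells by -1.36 (-1.57 to -1.15) and the cap by -1.42 (-1.64 to -1.20), but without cells of 50 or more Kupffer markers per 10000 the cap value was -0.44. Reticulocyte-like cells had a median of 104 such markers per 10000, so that limit leaves out most of the 60 cells and the value rests on few UMIs. Over all genes, 38 of 39 were lower than in early cells, where 90.0% of all genes were.

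**Figure D2:**
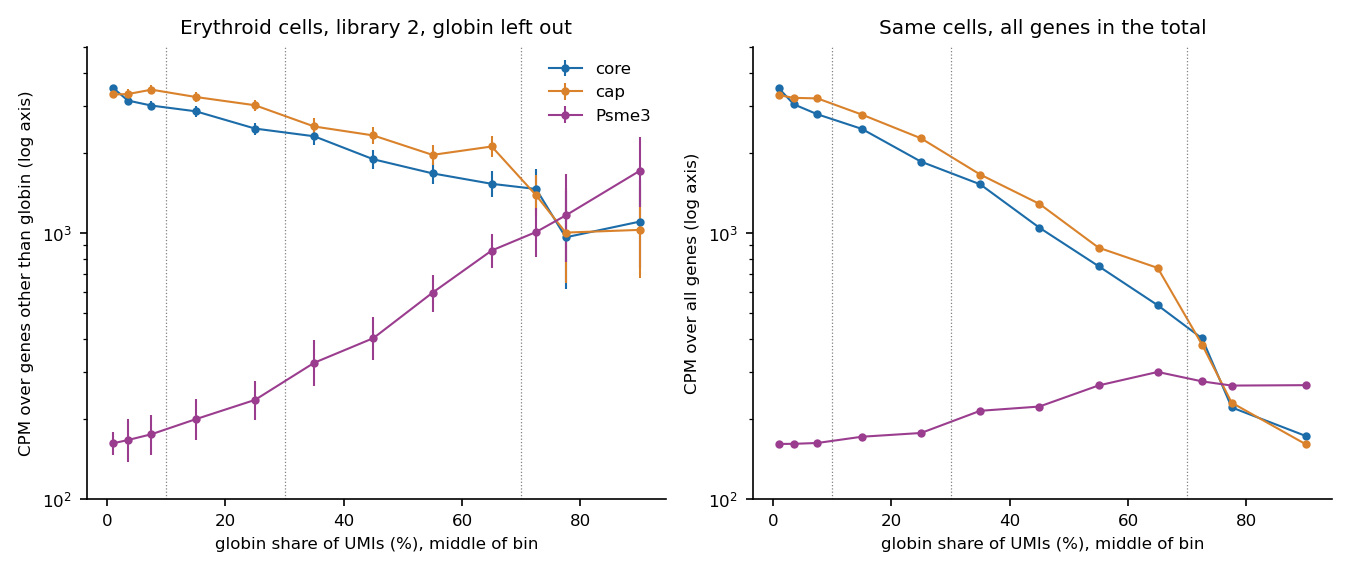
Core, cap and Psme3 levels in erythroid cells of library 2 binned by globin share (x axis, middle of bin; dotted lines mark the stage limits), as CPM over genes other than globin with 95% counting intervals (left) and over all genes (right), on log axes. From the lowest to the highest bin the core goes from 3513 to 1103 CPM and Psme3 from 162 to 1712 on the left axis.

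Within the core, the alpha ring (-0.84, -0.94 to -0.75) and the beta ring (-0.81, -0.91 to -0.71) had similar late-to-early ratios. Psma4 had the lowest ratio of the core, at 222, 154, 84.9 and 77.8 CPM through the 4 stages (-1.38 for late, -1.71 to -1.07), and Psma1 the highest, at 216, 255, 185 and 49.5 CPM (-0.22, -0.45 to 0.00). The catalytic subunits kept unequal shares. Psmb5 was at 237, 194, 111 and 91.9 CPM (-1.10, -1.38 to -0.82), Psmb6 at 186, 137, 130.2 and 56.6 (-0.52, -0.79 to -0.26) and Psmb7 at 119, 115, 95.1 and 77.8 (-0.33, -0.65 to -0.02). Psma3 was at 249, 195, 155 and 99.0 CPM (-0.68, -0.93 to -0.44).

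The lid was the most divided part of the cap. All values of this paragraph are over genes other than globin. Globin made up 2.42% of UMIs in early, 50.9% in late and 76.6% in reticulocyte-like cells. Over all genes, each late or reticulocyte-like level is therefore lower, relative to the early one, than given here. Psmd3 was at 161, 106, 49.8 and 21.2 CPM (-1.7 for late, -2.12 to -1.29), Psmd7 at 260.2, 162, 86.8 and 21.2 (-1.58, -1.90 to -1.28) and Psmd6 at 161, 129, 61.8 and 42.4 (-1.38, -1.77 to -1.02). Psmd14 was at 142, 118, 67.4 and 28.3 CPM (-1.07, -1.44 to -0.72). Its reticulocyte-like ratio of -2.32, from 4 UMIs, became 0.81 (-2.24 to 2.67) without cells of 50 or more Kupffer markers per 10000. Psmd13 instead stayed at 184, 224 and 176 CPM up to the late stage (-0.06, -0.30 to 0.17), and Psmd11 at 209, 218 and 170 (-0.30, -0.54 to -0.07). In the base, the ATPase Psmc6 stayed at 193, 218 and 196 CPM up to the late stage (0.02, -0.20 to 0.24), with 49.5 CPM from 7 UMIs in reticulocyte-like cells. Psmd4 was at 221, 205, 170 and 212 CPM, and its reticulocyte-like level did not differ from the early one beyond counting error (-0.06, -0.64 to 0.46). Psmd1 had a late-to-early ratio of -0.47 (-0.70 to -0.25), Psmd2 of -0.67 (-0.90 to -0.44) and Psmc2 of -0.57 (-0.98 to -0.19). The chaperone Psmd9 held at 154 CPM into the intermediate stage and was at 60.9 CPM in late cells (-1.34, -1.73 to -0.97), and a single UMI was left in reticulocyte-like cells. Psmd5 and Psmd10 had late ratios of -0.28 (-0.69 to 0.11) and 0.20 (-0.31 to 0.69), both intervals including no change. Psmc3ip was at 35.0, 50.0, 12.9 and 7.07 CPM.

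**Figure D3:**
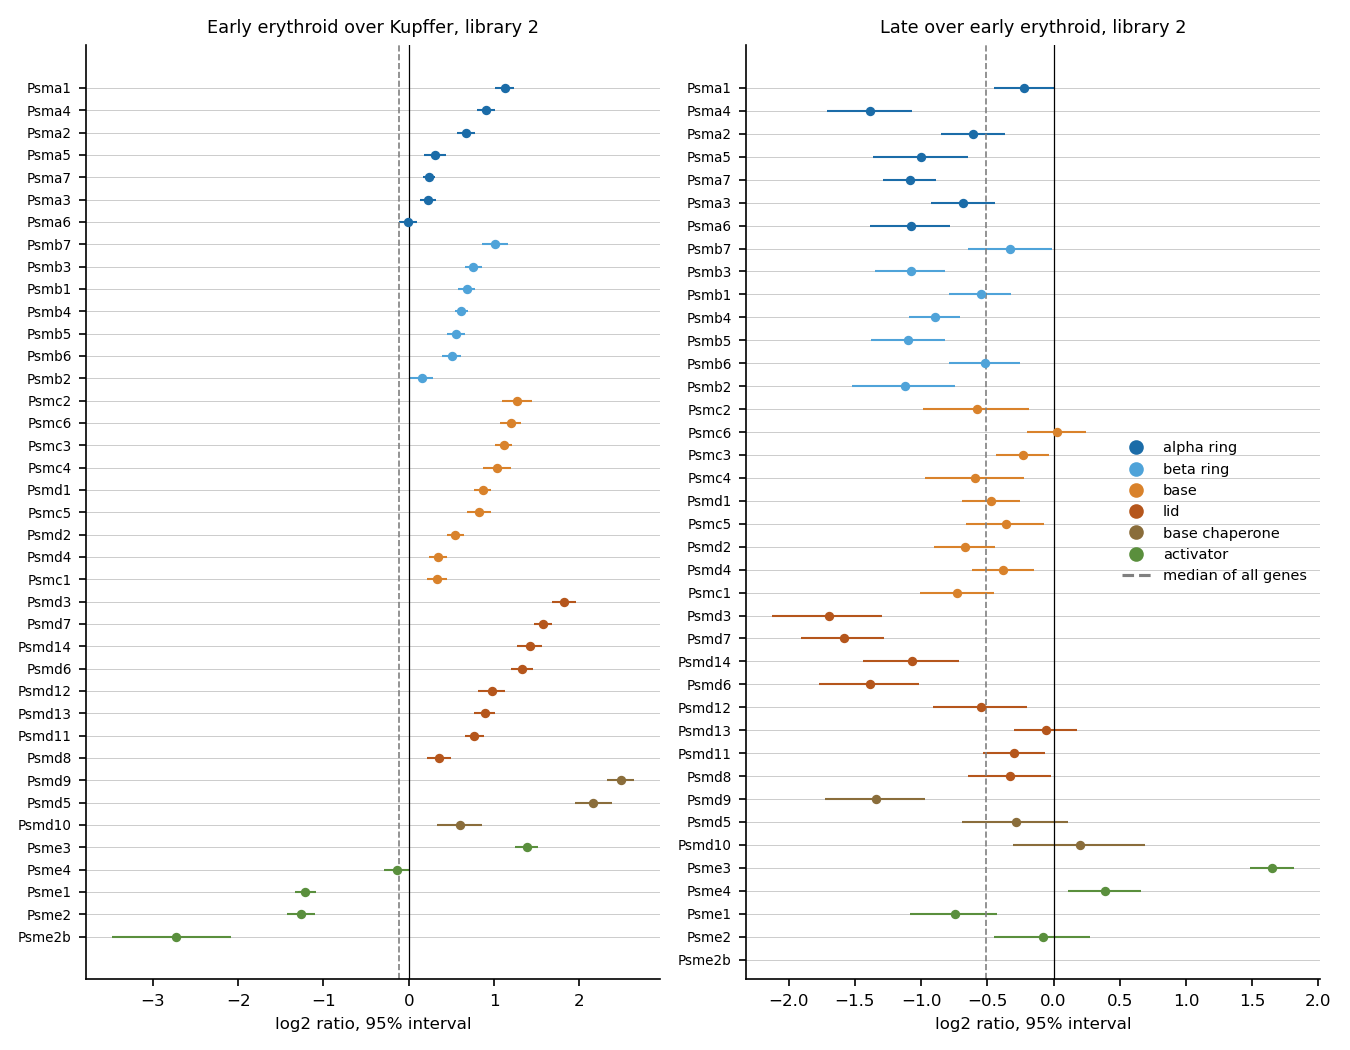
Log2 ratio of each subunit, chaperone and activator in early erythroid over Kupffer-gated cells (left) and in late over early erythroid cells (right) of library 2, over genes other than globin, with 95% counting intervals; colours give the role and the dashed line is the median of all genes (-0.11 and -0.51). Psmd9 (2.48) and Psmd5 (2.17) lie farthest right on the left panel, and Psme3 (1.65) lies farthest right on the right panel; Psme2b had too few UMIs for a ratio there.

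Psme3 took the opposite course to the summed core and cap. It was at 165 CPM (153 to 179) in early, 217 (192 to 244) in intermediate, 519 (477 to 564) in late and 1167 (996 to 1359) in reticulocyte-like cells, from 658, 269, 562 and 165 UMIs. The intervals of the 4 stages do not overlap. The log2 ratio to early cells was 1.65 (1.48 to 1.81) in late and 2.82 (2.56 to 3.07) in reticulocyte-like cells over genes other than globin, and 0.66 (0.49 to 0.82) and 0.76 (0.50 to 1.0) over all genes. Over all genes its level was 161 CPM in early cells, 174 in intermediate, 255 in late and 273 in reticulocyte-like cells, so it was higher in late than in early cells under either total. The 165 UMIs of the last stage came from 51 of 60 cells, and the cell with most of them gave 8.48%. Psme3 was detected in 81.6% of early (75.3 to 86.8, exact binomial) and 80.6% of late cells (75.4 to 85.1). After thinning to 1000 UMIs of all genes per cell, the shares were 16% (11.0 to 22.0) and 24.3% (19.3 to 29.8) and, in reticulocyte-like cells, 10.0% (3.76 to 20.5), against 6.11% (5.37 to 6.92) in Kupffer-gated cells of library 2. Thinning left out 2, 1 and 0 of the erythroid cells and 936 Kupffer-gated ones. Globin counts toward the 1000 UMIs, so cells rich in globin kept fewer others. On that same total of all genes, however, summed Psme3 was higher in reticulocyte-like than in early cells (273 and 161 CPM). The thinned share of reticulocyte-like cells, from 6 of 60 cells, did not follow that rise, and its interval overlaps that of early cells. Outside the erythroid cells, Psme3 was at 54.6 and 63.4 CPM in Kupffer-gated cells of the libraries, 32.9 and 50.8 in endothelial cells, 50.4 and 43.7 in monocytes, and 171 (17 UMIs) and 34.3 (4 UMIs) in T and natural killer cells.

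The other activators depended on the total used. Psme4 was at 106, 153, 138 and 184 CPM, with late and reticulocyte-like ratios of 0.39 (0.11 to 0.66) and 0.80 (0.17 to 1.37) over genes other than globin but -0.60 and -1.27 over all genes. Psme2 was at 79.0, 56.4, 74.8 and 141 CPM, with a reticulocyte-like ratio of 0.84 (0.11 to 1.49) that turned to -1.22 over all genes. Psme1 was at 143, 98.3, 84.9 and 141 CPM (-0.75 for late, -1.08 to -0.43). As a group the activators summed to 498, 532, 824 and 1641 CPM over genes other than globin, of which Psme3 alone was 1167 in the last stage. Over all genes the order turned, with sums of 486, 428, 405 and 383 CPM (-0.34 for reticulocyte-like over early cells, -0.54 to -0.14).

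The promoters of Psme3 and Psmd9 are shown because these members had the highest and lowest reticulocyte-like ratios. RefSeq promoter entries (build GRCm38.p6, 250 bases before to 50 after the start) matched 35 of the 42 members. They were searched on both strands for CCAAT (the CCAAT box), GATAA (the core of the GATA factor site) and TGACNNNGC (the antioxidant type of element bound by NFE2-family factors). Printed are the 120 bases before the start, 5′ to 3′ along the gene, with motif letters in capitals; no motifs overlap in them. Psme3 lies at chr11:101316093-101316212 on the plus strand and Psmd9 at chr5:123228070-123228189 on the plus strand. The annotated Psmd9 gene runs from 123169413 to 123250131, so the printed stretch lies inside it. The reticulocyte-like ratio of Psmd9 rests on 1 UMI.
Psme3: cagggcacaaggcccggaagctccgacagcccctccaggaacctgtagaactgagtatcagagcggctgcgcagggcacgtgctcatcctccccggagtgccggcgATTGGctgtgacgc
Psmd9: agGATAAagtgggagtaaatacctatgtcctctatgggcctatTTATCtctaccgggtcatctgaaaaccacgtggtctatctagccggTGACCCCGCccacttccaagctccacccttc
Psme3 holds a CCAAT box and neither other motif in its whole entry, and Psmd9 holds 2 GATAA and 1 TGACNNNGC. GATAA occurred in 8 of the 35 members (22.9%) and in 25.4% of all 32851 promoters, CCAAT in 14 (40%) and 37.4%, and TGACNNNGC in 6 (17.1%) and 12.4%. These are matches of letters only, and their part in the ratios was not tested.

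Seen cell by cell, the stage difference was spread over the cells. The median cell had 31.4 core UMIs per 10000 UMIs other than globin in the early stage (quartiles 27.5 and 37.3), 24.5 in the intermediate, 16.5 in the late (10.7 and 22.8) and 10.7 in the reticulocyte-like stage, and the medians for the cap were 33.5, 30.4, 20.6 and 10.5. At least 1 core UMI was present in 100%, 99.2%, 96.3% and 93.3% of cells, and after thinning to 1000 UMIs of all genes in 95.7%, 81.5%, 58.1% and 23.3%. The share in Kupffer-gated cells of library 2 was 90.8% unthinned and 81.6% thinned. Globin counts toward the 1000 UMIs and made up 2.42% of UMIs in early and 76.6% in reticulocyte-like cells. Thinned cells of later stages thus kept fewer UMIs other than globin, and the thinned shares include this.

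Other genes of the pathway took different courses in late cells. Of 10 measured ubiquitin enzymes tied to red cell maturation, 9 were at least 1.5-fold higher in late than in early cells and none was lower, where 22.2% of all genes were higher and 47.7% lower. Their median was 2.78, and 3 of the 11 genes listed (Ube2l6, Mkrn1 and Trim10) are reticulocyte markers too. Over all genes, 7 of the 10 were higher and 1 was lower, where 74.5% of all genes were lower. The share of all genes that were higher on that total is not given. The ligase Ube2o was at 18.6 CPM in early and 403 in late cells, with log2 ratios to early cells of 4.44 in late and 6.81 in reticulocyte-like cells. The conjugating enzymes Ube2h (4.02 and 6.55) and Ube2l6 (3.89 and 5.64) followed. Of the core assembly and inhibitor genes, 5 of 6 were lower (Psmg1 -4.10, Psmg4 -2.47, Psmg2 -2.0, Psmg3 -2.0 and Pomp -1.18) and Psmf1 was higher (1.03). Psmf1 was at 0.04 (-0.23 to 0.29) over all genes. Among cap partners, Zfand5 (1.84) and Usp14 (0.65, but -0.34 over all genes) were higher and Uchl5 (-1.36) and AI314180 (-1.19) lower. Among shuttle factors, Ubqln4 (-2.21), Nsfl1c (-1.99) and Rad23b (-1.44) were lower. The ubiquitin gene Ubb had a ratio of 0.95, which was -0.04 (-0.17 to 0.10) over all genes, and Rps27a, which also encodes a ribosomal protein, of -1.12. In reticulocyte-like cells, 8 of the 10 red cell enzymes were higher and 1 was lower, 6 of 8 cap partners, 7 of 12 shuttle factors and 5 of 6 regulators of proteasome genes were lower, where 17.2% of all genes were higher and 49.3% lower. Ubb had a ratio of 2.98, and of 0.91 over all genes.

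Core RNA outweighed cap RNA most in the dendritic cells and monocytes. Conventional dendritic cells had 1.84 core UMIs per cap UMI in library 1 (1.62 to 2.10) and 2.16 in library 2 (1.95 to 2.40), and monocytes had 1.70 (1.56 to 1.86) and 1.99 (1.83 to 2.18). These gates held 31 and 62 dendritic cells and 112 and 106 monocytes. Kupffer-gated cells were at 1.21 (1.18 to 1.23; 1.19 without shallow shared barcodes) and 1.37 (1.36 to 1.39) and endothelial cells at 1.03 (0.96 to 1.10) and 1.18 (1.08 to 1.29). Early erythroid cells were at 1.002 (0.978 to 1.026), intermediate at 0.853 and late at 0.839 (0.791 to 0.89). In both libraries the monocyte and dendritic intervals lay above those of Kupffer-gated and endothelial cells, and they overlapped each other. Mitochondrial genes made up 8.07% and 7.52% of UMIs in monocytes of libraries 1 and 2 and 8.16% and 6.31% in dendritic cells. They made up 13.3% and 11.5% in Kupffer-gated and 13.4% and 12.6% in endothelial cells, but 7.45% in early erythroid cells of library 2. With a stricter mitochondrial limit the Kupffer ratios were 1.37 and 1.51. In thinned cells of library 1, the dendritic ratio was 1.30 and the Kupffer one 1.12. The part of mitochondrial share in these ratios was not tested.

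**Figure D4:**
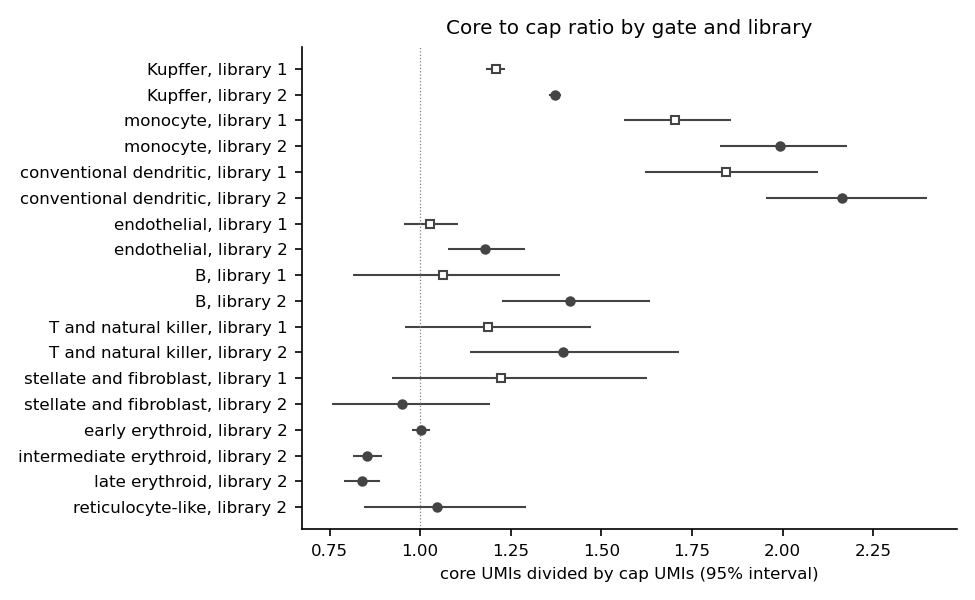
Core UMIs divided by cap UMIs in each gate with 95% counting intervals; open squares are library 1, filled circles library 2, and the dotted line marks equal numbers. Dendritic cells (1.84 and 2.16) and monocytes (1.70 and 1.99) lie right of Kupffer-gated cells (1.21 and 1.37), and intermediate and late erythroid cells (0.853 and 0.839) lie left of equality.

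Set against Kupffer-gated cells without shallow shared barcodes, monocytes and conventional dendritic cells had less cap and more summed activator RNA. The single activators did not share a direction. In conventional dendritic cells the cap differed by -0.34 (-0.50 to -0.19) in library 1 and -0.71 (-0.83 to -0.59) in library 2, and the activators by 1.11 (0.98 to 1.24) and 0.93 (0.82 to 1.04). Psme1 was at 988 and 892 CPM there, against 335 and 330.2 in Kupffer-gated cells (1.56 and 1.43), and Psme2 at 478 and 375 against 179.7 and 189 (1.41 and 0.99). Psme3 had ratios of -1.30 (-2.62 to -0.24, from 7 UMIs) and -0.58 (-1.25 to 0.03). The base ATPase Psmc1 was lower, at 57.4 and 32.9 CPM (-1.23, -1.99 to -0.56, and -2.20, -2.98 to -1.52), and so was Psme4 (-1.05 and -1.39), while Psmb1 was higher (1.44 and 0.74). The inducible Psmb8 (1.78 and 2.08) and Psmb9 (2.03 and 2.49) were higher too, and Psmb10 was not beyond counting error (-0.36 and -0.21). In monocytes the cap differed by -0.21 (-0.31 to -0.11) and -0.35 (-0.46 to -0.25) and the core by 0.31 (0.23 to 0.39) and 0.19 (0.11 to 0.26), with summed activators 0.49 and 0.32 higher. Psme1 (0.60 and 0.42) and Psme2 (0.91 and 0.71) were higher there. Psme4 was lower (-0.64, -1.09 to -0.22, and -0.48, -0.92 to -0.07), and Psme3 (-0.12 and -0.54) did not differ beyond counting error. Psma6 of monocytes was lower, at 73.5 and 115 CPM (-1.29 and -0.83), and their Psma4 higher, at 177 and 192 CPM (1.08 and 0.70). Endothelial cells had less of the activators (-0.72, -0.86 to -0.58, and -0.57, -0.74 to -0.41), with Psme2b at 8.5 and 4.76 CPM (8 and 3 UMIs) against 52.7 and 31.8 in the Kupffer gate, and less Psma6 (-0.91 and -1.13).

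With UMIs summed over cells, Kupffer-gated cells of library 2 had more core RNA than those of library 1. The difference was larger in the beta than in the alpha ring, and cap and activator RNA were nearly the same. Over all genes, the core summed to 1801 CPM in library 1 and 2185 in library 2, a log2 ratio of 0.28 (0.25 to 0.30), and 0.31 (0.28 to 0.33) without shallow shared barcodes. The beta ring differed by 0.45 (0.41 to 0.49), the alpha ring by 0.15 (0.12 to 0.18), the base by 0.12 (0.08 to 0.15), the lid by 0.11 (0.07 to 0.16) and the activators by -0.11 (-0.15 to -0.07). The cap, at 1491 and 1593 CPM, differed by 0.10 (0.07 to 0.12), with and without those barcodes. The median of all genes was -0.37, and the members' median was 0.14. When every cell had the same weight, the core difference was 0.028 and that of the cap 0.061. The excess of core over cap was thus absent there. In cells of a matched depth range the core difference was 0.16. The median depth of the gate was 3448 UMIs in library 1 and 4592 in library 2, with globin at 0.256% and 7.19% of UMIs. The part of depth or globin in the result was not tested further. In monocytes the core differed by 0.27 (0.16 to 0.37) between the libraries, and in endothelial cells by -0.00 (-0.12 to 0.11).

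Of 40 members with at least 30 UMIs, 2 were at least 1.5-fold higher in library 2, where 6.93% of all genes were, and 1 was at least 1.5-fold lower, where 33.7% were. Without shallow shared barcodes 3 were higher, where 7.43% of all genes were. The count of higher members was 4 over genes other than globin, 16 when scaled to the median ratio of all genes and 0 when every cell had the same weight. No share of all genes is given for these runs. Their counts thus show how far the count depends on the setting and are no result about the members. The higher ones were the catalytic subunits Psmb6, at 75.6 and 122 CPM (0.69, 0.58 to 0.80), and Psmb5, at 95.7 and 150 CPM (0.65, 0.54 to 0.75), joined without the shared barcodes by Psmd14 (0.61), which was at 33.2 and 49.2 CPM with them (0.57, 0.39 to 0.74). Psmb2 followed, at 75.1 and 106 CPM (0.49, 0.38 to 0.61), whereas the third catalytic subunit Psmb7 was at 49.2 and 54.7 CPM (0.15, 0.01 to 0.30). Across the alternative runs, the ratio went down to 0.13 for Psmb6 and 0.065 for Psmb5. The lowest were Psme2b, at 51.9 and 29.5 CPM (-0.82, -0.97 to -0.66), Psmd9, at 37.1 and 25.6 (-0.54, -0.72 to -0.36), Psmd5 (-0.41, -0.65 to -0.17) and Psmc2 (-0.36, -0.52 to -0.20). Psme1 (-0.12, -0.18 to -0.07) was slightly lower, but not in thinned cells (0.030) or at matched depth (0.042), and Psme2 (-0.03), Psme3 (0.11), Psme4 (-0.04), Psmd2 (0.01), Psmd11 (-0.05) and Psmd10 (-0.00) did not differ beyond counting error. Psma3 (0.13), Psmd1 (0.22) and Psmd4 (0.24) were higher. The inducible subunits were lower in library 2, Psmb9 by -0.89, Psmb10 by -0.40 and Psmb8 by -0.23.

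The promoters of Psmb5 and Psmb6 both hold TGACNNNGC and are shown for that reason, with the 120 bases before the start and the motif in capitals. Both members were past 1.5-fold with and without the shared barcodes, but not when every cell had the same weight. Psmb5 lies at chr14:54617996-54618115 on the minus strand and Psmb6 at chr11:70525237-70525356 on the plus strand of GRCm38.p6.
Psmb5: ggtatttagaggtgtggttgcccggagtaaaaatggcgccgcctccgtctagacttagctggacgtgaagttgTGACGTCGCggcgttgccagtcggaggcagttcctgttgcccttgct
Psmb6: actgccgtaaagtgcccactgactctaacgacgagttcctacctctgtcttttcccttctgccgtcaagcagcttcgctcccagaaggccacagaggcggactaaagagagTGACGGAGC
The motif occurred in 6 of the 35 matched members (17.1%) and in 12.4% of all promoters. The others that hold it had ratios between the libraries of 0.33 (Psmd12), 0.14 (Psmc6), -0.04 (Psme4) and -0.54 (Psmd9), so its holders did not share a direction. Of the genes listed as regulators of proteasome genes, Nfe2l2, an NFE2-family factor, was at 208 and 88.5 CPM in Kupffer-gated cells (-1.23) and Nfe2l1 at 116 and 112 (-0.05).

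**Figure D5:**
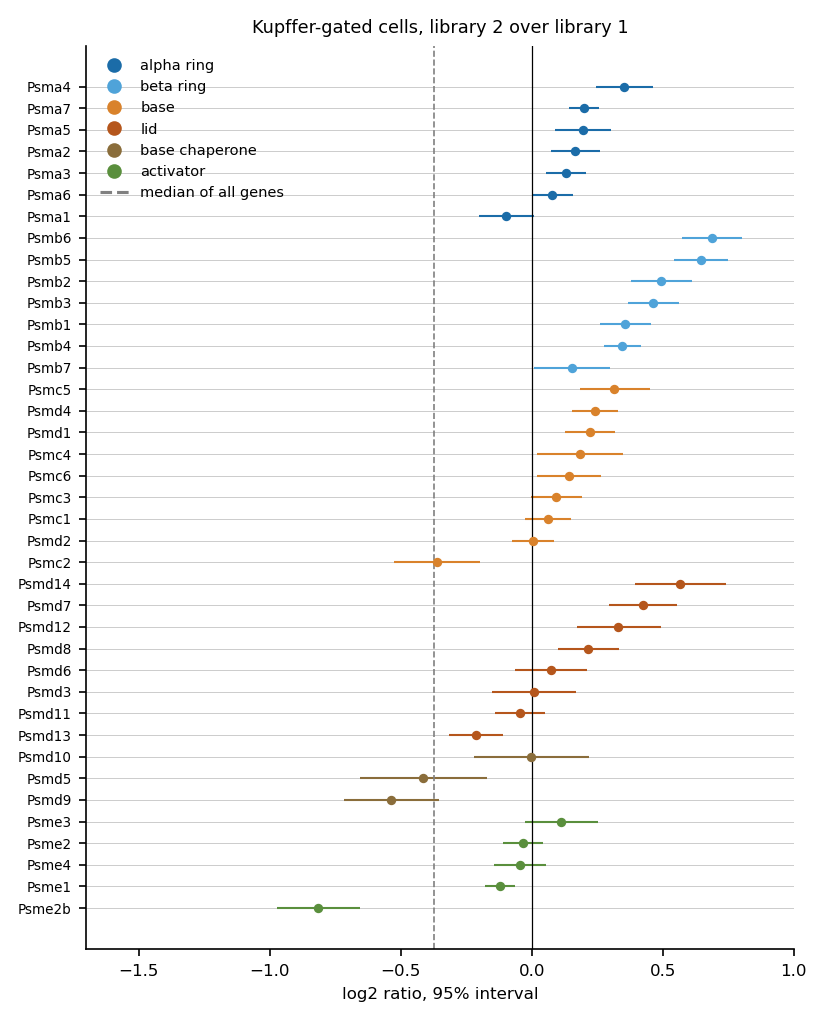
Log2 ratio of library 2 over library 1 for each subunit, chaperone and activator in Kupffer-gated cells, over all genes, with 95% counting intervals; colours give the role and the dashed line is the median of all genes (-0.37). All 7 beta-ring genes lie right of 0, led by Psmb6 (0.69) and Psmb5 (0.65), and Psme2b (-0.82) lies farthest left.

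The tissue-restricted core genes were scarcely detected. Psmb11, of thymic epithelium, had 5 UMIs in all barcodes, and Psma8, of the testis, had 203. Psma8 was at 2.78 CPM in library 1 and 2.82 in library 2 in Kupffer-gated cells over all genes (0.02, -0.61 to 0.69) and at 3.77 CPM in early erythroid cells.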

How the data were processed

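UMI counts came as one whole-number table, genes by barcodes, for both libraries together. The authors' deposited counts were produced by Cell Ranger 3.0.1 (named in the header of the table), and GRCm38.p5 and R 3.6.1 are listed in the submitters' processing notes. Neither the annotation release nor any equalising of depth is stated there. The members, lists and gates were chosen with earlier results of these data known.

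A barcode was kept if it had 200 or more genes and no more than 20% of its UMIs from mitochondrial genes. It entered a lineage by its marker UMIs per 10000 UMIs other than globin and by the number of markers found (Kupffer at least 200 and 5 markers, erythroid 25 and 4). Gates other than Kupffer needed under 150 Kupffer marker UMIs per 10000, and no doublets were called. UMIs were summed per gate and library. Genes entered a ratio with at least 30 UMIs in either arm, and a gene at 0 in one arm was bounded by 3 UMIs per arm. Levels carry exact Poisson intervals, ratios conditional exact intervals, and shares of cells Clopper-Pearson intervals, all at 95%; they cover counting error only. Per comparison, the text names up to 4 members at either end of the ratios, if counting error does not reach no change, plus a set list of subunits, chaperones and activators; other members named beside their ring, lid or base were picked after their values were seen. CPM over all genes was the planned scale. Genes in erythroid stages are read over genes other than globin, with the other scale given where it turns a ratio past counting error. Late and reticulocyte-like ratios within counting error, such as those of Psmd10, Psmc6 and Psmd4, are given over genes other than globin only. The ratios were run on simulated Poisson counts, the model that the intervals assume. Variation between cells or mice was not simulated, so the run does not test for it. Software was Python 3.11.15 with scipy 1.17.1, numpy 2.4.6, matplotlib 3.10.9 and pandas 2.3.3. A few genes outside the members are not reported here.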

Additional observations from a re-analysis of the deposited data

Results flagged for a closer look

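Barcodes left out by the filters, which entered no comparison, also carried proteasome RNA, far above the limit that a count of 0 allows (0.286 CPM in library 1 and 0.482 in library 2). That limit is low because it is set over 5419 and 2784 barcodes, so passing it tells little about these barcodes. Over genes other than globin and mitochondrial genes, their core summed to 1773 CPM in library 1 and 2118 in library 2, and their cap to 1788 and 2029.9. Kupffer-gated cells on the same scale had 2084 and 2686 CPM of core and 1725 and 1959 of cap. In library 2, barcodes that met both the Kupffer and the erythroid gate numbered 270 and had 2557 CPM of core and 2236 of cap. Psmb5 was higher in endothelial than in Kupffer-gated cells in library 1 (0.35 on the log2 scale) and lower in library 2 (-0.52); this difference was not tested, since each library is 1 sample.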

How the results depend on the processing

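No paired analysis was possible because each genotype has 1 mouse and no label ties a barcode number to one; for the same reason no replicate could be left out. No alternative run turned the direction of the summed core or cap; the summed activators, given above on both totals, did turn in the erythroid stages. Of the summary values 98 stayed close and 74 moved, and of the single-gene values 531 stayed, 95 moved and 6 reversed. Values are log2 ratios unless said, named K for Kupffer-gated core or cap in library 2 over 1, E for early erythroid over Kupffer core, L for late over early and R for reticulocyte-like over early. Counts of genes in this section have no share of all genes beside them and show only how the count moves with the setting. Matched depth, the limit on Kupffer markers and stages set by marker genes were chosen after seeing the data, as were further results added to the planned settings. Causes were not tested. Over all genes, R was -3.42 (core) and -3.48 (cap), and Psme2 in R (-1.22) and Psme4 in L (-0.60) and R (-1.27) reversed. Without globin, E was 0.51, L -0.83 and -0.57 with 20 genes lower, and K 0.38 and 0.20 with 4 genes higher. Without globin and mitochondrial genes, E was 0.43, L -0.76 and -0.50 with 18 genes, K 0.37 and 0.18, and R -1.09 and -1.15. Under 50 Kupffer markers per 10000, L was -1.38 and -1.21, R of the cap -0.44, and Psmd14 in R reversed (0.81). At 2-fold no gene was higher in K (0). With at most 10% mitochondrial UMIs, E was 0.47, K of the core 0.25 with 0 genes, and Kupffer core to cap UMIs 1.37 and 1.51. With at most 40%, E was 0.65, L -1.89 and -1.64, K 0.36 and 0.14 with 4 genes, and core to cap 1.14 and 1.33. Without the deepest 5% of cells, E was 0.61, L of the cap -1.63, K of the core 0.24 and core to cap in library 2 1.32. With thinned cells, E was 0.71, L of the cap -1.68 with 19 genes, K 0.22 and 0.013, Psme1 in K reversed (0.030), and core to cap 1.12 and 1.29 in Kupffer, 1.30 in dendritic and 1.87 in monocyte cells of library 1. At matched depth, E was 0.48, L of the core -1.52, R of the core -1.09, K of the core 0.16 with 1 gene, Psme1 in K reversed (0.042), and core to cap 1.13 and 1.20 in Kupffer and 1.40 in dendritic cells of library 1. With per-cell shares averaged, E was 0.67, L of the cap -1.64, K 0.028 and 0.061 with 0 genes, and core to cap 1.28 and 1.25. With at least 500 genes per cell, E was 0.55 and K of the core 0.33. Scaled to the median ratio, K was 0.67 and 0.49 with 16 genes. Without shallow shared barcodes, K of the core was 0.31. With stages set by marker genes, L was -1.94 and -1.63. With a stricter gate, L was -1.73 and -1.48, K of the core 0.25 and core to cap in library 1 1.24. Depth limits the reticulocyte-like stage, where most single subunits rest on few UMIs.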
